A study of Mus musculus with 8 samples.

Results

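Histone deacetylases remove acetyl groups from histone tails, and acetylation of histone H3 at lysine 9 (H3K9ac) marks active promoters and enhancers. The 10 deacetylase genes described here were chosen by name from 21938 protein-coding genes. They comprise the 4 class I genes *Hdac1*, *Hdac2*, *Hdac3* and *Hdac8* and 6 others, namely *Hdac4*, *Hdac5*, *Hdac7* and *Hdac9* of class IIa, *Hdac6* of class IIb and *Hdac11* of class IV. *Hdac10* was not among them, so the class comparison does not cover the complete gene family. H3K9ac was measured by ChIP-seq in BM cells of C57BL/6 mice that all carried the *NUP98-HOXD13* transgene, a fusion gene used as a model of MDS that can progress to AML. The authors' methods name frozen BM cells, while a figure legend also names c-kit-positive cells. The mice expressed *GFI1-36S*, the common form of the repressor GFI1, or *GFI1-36N*, its serine-to-asparagine variant, or had reduced GFI1 expression (*GFI1-KD*). Each genotype was treated with vehicle, an equal volume of DMSO, or with curcumin, an inhibitor of histone acetyltransferases, at 20 mg/kg once a week by i.p. injection. There was 1 library per group, 6 in all, so that differences have no check by replicates and no p-values appear. The number of mice behind a library and their age were not given in the sources used here.

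The class I enzymes HDAC1 and HDAC2 work inside the SIN3, NuRD and CoREST corepressor complexes, HDAC3 works in a corepressor complex of its own, and GFI1 recruits deacetylases and the CoREST demethylase to its target genes. The class IIa proteins shuttle between nucleus and cytoplasm and bind MEF2 transcription factors. HDAC6 is mainly a cytoplasmic tubulin deacetylase. HDAC11, the sole class IV enzyme, removes long fatty acyl groups from lysine. The question asked of the data was how strongly the genes of these enzymes carry H3K9ac, and whether this differed by class, by genotype and with curcumin.

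The promoters differed in their CpG content. RefSeq promoter entries (assembly GRCm38.p6, 250 bp before and 50 bp after a start site) were found for 8 of the 10 genes, with 12 entries in all. The stretches before the start sites of 4 class IIa genes and of *Hdac2* are printed below 5′ to 3′ on the minus strand (plus strand for *Hdac2*), with CpG dinucleotides in capitals, because they span the CpG-rich and CpG-poor starts and, at *Hdac4* and *Hdac5*, a gap between peaks described further on. They lie at chr10:36974294-36974543 (*Hdac2*), chr1:92180342-92180591 (*Hdac4*), chr11:102230173-102230422 (*Hdac5*), chr15:97831768-97832017 (*Hdac7*, internal start), chr15:97844503-97844752 (*Hdac7*, most upstream start) and chr12:34528890-34529139 (*Hdac9*).
Hdac2: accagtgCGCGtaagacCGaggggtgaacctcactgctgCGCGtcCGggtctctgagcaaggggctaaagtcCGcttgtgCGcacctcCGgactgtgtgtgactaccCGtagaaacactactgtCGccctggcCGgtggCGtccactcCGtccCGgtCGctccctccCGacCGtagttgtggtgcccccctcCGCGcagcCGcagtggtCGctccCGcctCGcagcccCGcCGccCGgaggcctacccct
Hdac4: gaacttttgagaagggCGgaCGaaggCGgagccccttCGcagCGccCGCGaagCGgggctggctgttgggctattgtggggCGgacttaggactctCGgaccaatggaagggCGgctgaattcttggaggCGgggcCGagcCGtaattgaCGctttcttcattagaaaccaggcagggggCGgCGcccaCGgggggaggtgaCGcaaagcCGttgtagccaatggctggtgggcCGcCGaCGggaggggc
Hdac5: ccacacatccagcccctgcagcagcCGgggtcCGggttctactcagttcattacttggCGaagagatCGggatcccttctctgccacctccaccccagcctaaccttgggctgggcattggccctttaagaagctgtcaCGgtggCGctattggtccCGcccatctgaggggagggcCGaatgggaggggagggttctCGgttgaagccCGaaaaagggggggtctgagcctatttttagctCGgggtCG
Hdac7, internal start: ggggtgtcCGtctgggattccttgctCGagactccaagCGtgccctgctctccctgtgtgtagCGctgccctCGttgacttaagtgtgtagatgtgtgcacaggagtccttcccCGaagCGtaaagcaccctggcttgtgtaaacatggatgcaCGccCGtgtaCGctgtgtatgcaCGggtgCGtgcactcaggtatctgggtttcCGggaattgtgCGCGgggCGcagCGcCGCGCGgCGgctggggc
Hdac7, upstream start: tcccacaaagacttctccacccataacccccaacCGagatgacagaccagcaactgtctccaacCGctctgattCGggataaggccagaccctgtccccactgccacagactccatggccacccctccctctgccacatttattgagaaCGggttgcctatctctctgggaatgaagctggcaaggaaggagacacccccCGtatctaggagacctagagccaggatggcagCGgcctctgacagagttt
Hdac9: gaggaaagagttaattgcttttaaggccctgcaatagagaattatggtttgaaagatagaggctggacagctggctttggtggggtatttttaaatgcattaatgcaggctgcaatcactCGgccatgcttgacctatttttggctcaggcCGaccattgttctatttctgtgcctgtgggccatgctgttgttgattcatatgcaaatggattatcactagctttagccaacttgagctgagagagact

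Counted over the whole 300 bp entries, *Hdac2* held 36 CpGs, *Hdac4* 32 and the internal start of *Hdac7* 35. The median of 20150 entries of coding genes (16522 genes) was 14. *Hdac11* held 22, *Hdac6* 20 and *Hdac5* 18. *Hdac8* held 6, the most upstream *Hdac7* start 6, and *Hdac9* 3 at the start printed here and 0 at another start further upstream. Entries with 18 or more CpGs overlapped a peak in at least 4 of the 6 libraries at *Hdac2*, *Hdac4*, *Hdac5*, *Hdac6*, *Hdac11* and the internal *Hdac7* starts. Of the 5 entries with 6 or fewer, that of *Hdac8* overlapped a peak in 6 libraries, that of the most upstream *Hdac7* start in 3, and the other 3 entries, of *Hdac7* and *Hdac9*, in 0. A GC box (GGGCGG on either strand), the core of an SP1 site, occurred 5 times each in the entries of *Hdac4* and *Hdac6* and was found in 47.8% of all coding entries.

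A promoter was taken as 1 kb on each side of any start site in the GENCODE M21 basic set. For each library, the strongest promoter peak of every gene was ranked by fold enrichment at the summit on a scale to 100, with 0 for a gene without a promoter peak. The 6 lists held 20354 to 49213 peaks, and the median promoter peak had 72 to 159 fragments at its summit. The library labelled *GFI1-36S* curcumin stood apart. It had the fewest peaks, the lowest median fold enrichment (12.5, against 17.5 to 21.7 in the other 5) and 3 peaks on chromosome Y, where the others had 0. Promoter peaks were found at 13 of 14 T-cell marker genes in it and at 4 to 8 in the others. *Cd3e*, *Cd3g* and *Cd4* had a peak in this library and in no other. It had no promoter peak at any of 17 neutrophil genes, *Elane* and *Mpo* included, where the others had 10 to 16, and had 1 of 8 stem and progenitor genes, against 7 or 8. Of all coding genes, 44.3% had a promoter peak in this library and 50.6% to 53.8% in the others. For *GFI1-36S*, the treatment in the name of each of the 2 lists contradicts its sample label. Treatments were taken from the labels, and exchanging them turns the sign of every *GFI1-36S* change given here. For *GFI1-36N*, the list names point to a heterozygous mouse with vehicle and a homozygous one with curcumin, a difference absent from the labels. In BM cells, a change in cell composition and a change of the mark per cell cannot be told apart.

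Nearly all of the 10 deacetylase genes had an acetylated promoter. A peak was found at 9 of the 10 in *GFI1-36S* vehicle (51.9% of all coding genes), *GFI1-36N* vehicle (51.7%), *GFI1-36N* curcumin (53.8%), *GFI1-KD* vehicle (53.6%) and *GFI1-KD* curcumin (50.6%) libraries, and at 8 of the 10 in *GFI1-36S* curcumin (44.3%). *Hdac9*, a class IIa gene, had no promoter peak in any library. With the start sites of the comprehensive annotation, it had one in both *GFI1-36N* libraries and in *GFI1-KD* vehicle, where the count of members became 10. *Hdac11* had none in *GFI1-36S* curcumin. The other 8 members had one in every library.

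**Figure D1:**
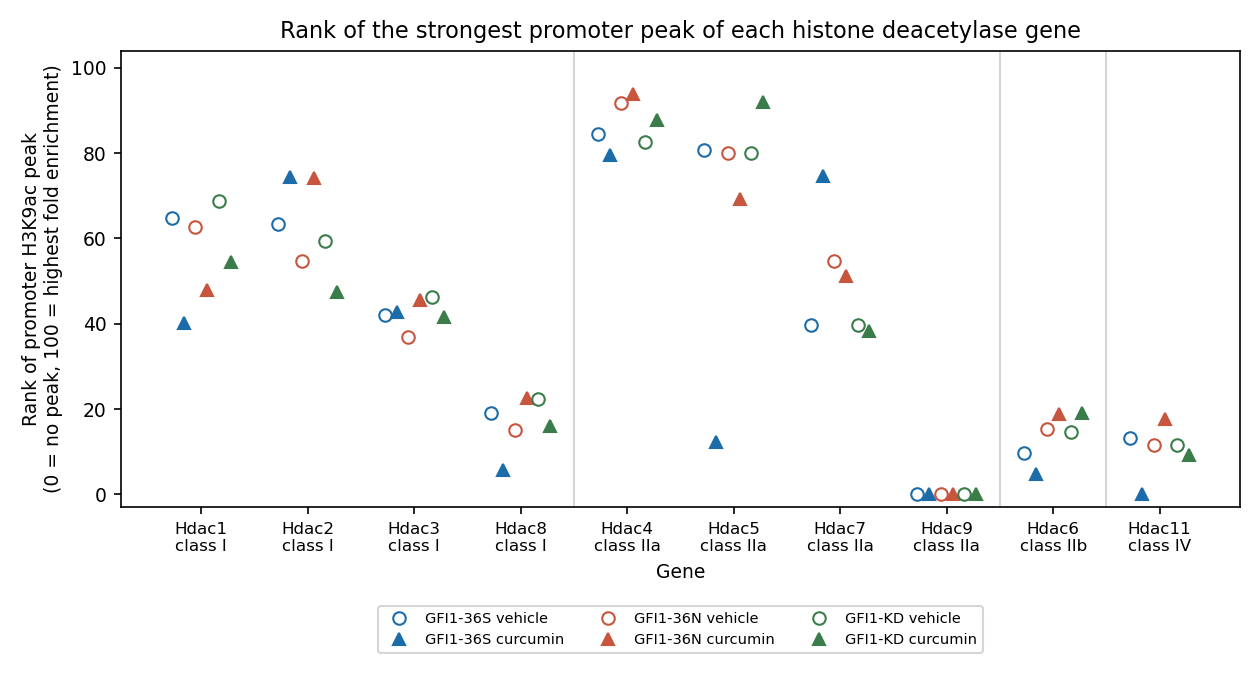
Rank of the strongest promoter H3K9ac peak (y axis, 0 for no peak, 100 for the highest fold enrichment of the library) for each histone deacetylase gene (x axis, by class), with open circles for vehicle and filled triangles for curcumin libraries in 3 genotypes. *Hdac4* lies between 79.6 and 93.9 in all 6 libraries, *Hdac9* at 0, and *Hdac5* drops to 12.4 in *GFI1-36S* curcumin alone.

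Among class I genes, *Hdac1* and *Hdac2*, which encode the paired catalytic subunits of several corepressor complexes, had the highest median ranks over the libraries. The promoter of *Hdac1* (gene at chr4:129516104-129542713, minus strand) ranked 64.9 with vehicle and 40.1 with curcumin in *GFI1-36S*, 62.7 and 48.0 in *GFI1-36N*, while the *GFI1-KD* values were 68.8 and 54.6. By the sample labels, all 3 vehicle libraries were above all 3 curcumin libraries. This held for *Hdac1* alone among the 9 members with a peak and for 6.02% of all genes with a promoter peak in at least 1 library. With the *GFI1-36S* treatments exchanged, it did not hold for *Hdac1*. In 5 libraries its peak began upstream of the start site and reached up to 2628 bp. In *GFI1-36S* curcumin the ranked peak, of 941 bp, lay wholly downstream of the start and a weaker peak lay upstream. The summit was 247 to 319 bp downstream of the start.

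*Hdac2* (chr10:36974544-37001889, plus strand) ranked 63.4 and 74.3 in *GFI1-36S*, 54.7 and 74.1 in *GFI1-36N*, with 59.5 and 47.4 for *GFI1-KD*, each time vehicle before curcumin. The vehicle and curcumin values overlapped across genotypes. The *Hdac2* and *Hdac1* order was not fixed, since *Hdac2* was higher in 2 of 6 libraries.

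*Hdac3*, the catalytic subunit of a corepressor complex of nuclear receptors, varied least of the members that had a peak in every library. It ranked 42.0 and 42.8 in *GFI1-36S*, 36.8 and 45.6 in *GFI1-36N*, while the *GFI1-KD* values were 46.3 and 41.5. The mean over the 6 libraries was 42.5 ± 3.40 (SD). The peak also covered the start site of the neighbouring gene *Rell2* in 5 libraries, but not in *GFI1-36S* curcumin, where it was 1146 bp wide. Its acetylation therefore cannot be assigned to *Hdac3* alone.

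*Hdac8* (chrX:102284639-102505359, minus strand), the class I enzyme not known as a subunit of these complexes, stood below the others. It ranked 19.1 and 5.68 in *GFI1-36S*, 15.0 and 22.5 in *GFI1-36N*, with 22.3 and 16.0 for *GFI1-KD*. By rank among all genes, *Hdac3* was above *Hdac8* in 6 of 6 libraries. The fold enrichment of *Hdac8* ran from 4.63 to 11.4, against 11.4 to 20.5 at *Hdac3*.

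The class IIa genes were spread over the whole scale. *Hdac4*, whose product binds MEF2 factors, ranked 84.4 and 79.6 in *GFI1-36S*, 91.8 and 93.9 in *GFI1-36N*, while the *GFI1-KD* values were 82.5 and 87.8. It was above every class I gene in 6 of 6 libraries and the highest member in 5. The *Hdac4* signal was split. Its strongest peak lay upstream of the start site at 92180341 on chromosome 1, with the summit at -397 to -422 bp relative to it, and a weaker peak lay downstream. In *GFI1-36N* vehicle, the upstream peak spanned 92180531 to 92181487 with a fold enrichment of 29.9, and the downstream peak 92178894 to 92180333 with 17.8. The stretch between them, most of the CpG-rich *Hdac4* sequence printed above, was covered by no peak in 5 libraries. In *GFI1-KD* vehicle, 1 peak of 2957 bp covered both.

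*Hdac5*, a close paralog of *Hdac4*, ranked 80.7 in *GFI1-36S*, 80.0 in *GFI1-36N* and 80.1 in *GFI1-KD* with vehicle. By the sample labels, this was the closest agreement across genotypes of any member with a vehicle peak. With curcumin it ranked 12.4 in *GFI1-36S*, 69.2 in *GFI1-36N* and 92.0 in *GFI1-KD*. The low *GFI1-36S* value stands far from the other 5. Without that library, *Hdac5* had a mean rank of 80.4 ± 8.08 (SD, 5 libraries), and with it 69.1 ± 28.7 (6 libraries).

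*Hdac7* (chr15:97792664-97844502, minus strand), known from T-cell and endothelial development, ranked 39.8 and 74.7 in *GFI1-36S*, 54.7 and 51.1 in *GFI1-36N*, with 39.6 and 38.2 for *GFI1-KD*. Its strongest peak lay at the internal starts near 97831494, with the summit 221 to 392 bp downstream. At the most upstream start, near 97844502, a peak was found in *GFI1-36S* vehicle with a fold enrichment of 3.26, in *GFI1-36S* curcumin with 7.36 and in *GFI1-36N* curcumin with 8.13, and in none of the other 3 libraries.

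**Figure D2:**
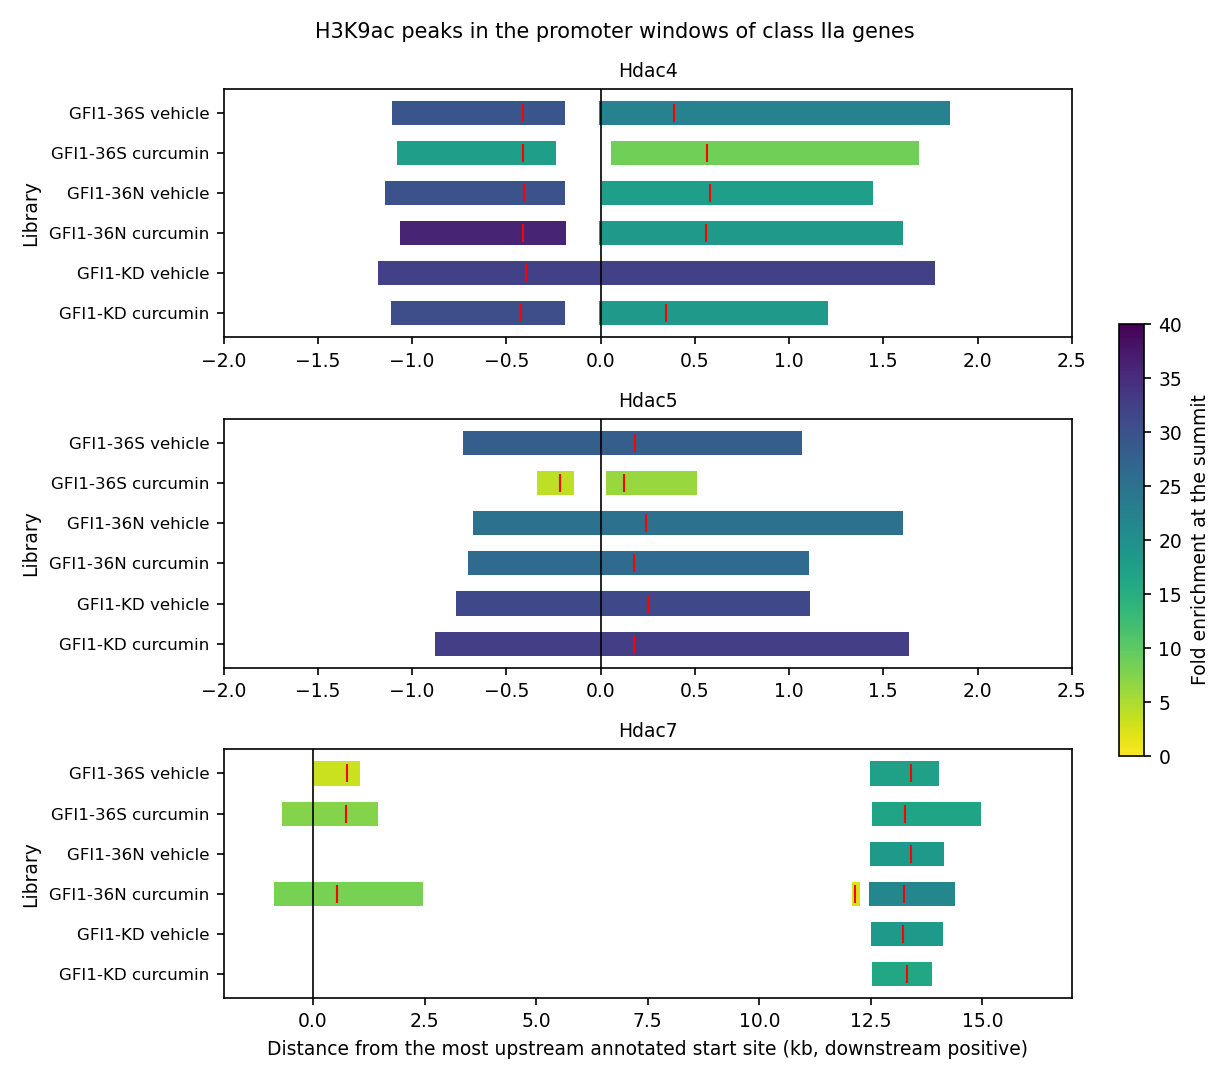
H3K9ac peaks in the promoter windows of *Hdac4*, *Hdac5* and *Hdac7* (rows, the 6 libraries), plotted by distance from the most upstream annotated start site in kb, with bars coloured by fold enrichment at the summit and red ticks at the summits. *Hdac4* shows a gap at or just upstream of the start site in 5 libraries, *Hdac5* is reduced to a peak of 488 bp and a peak of 195 bp in *GFI1-36S* curcumin, and *Hdac7* has a peak at its upstream start in 3 libraries.

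*Hdac6* (chrX:7930120-7947889, minus strand) had weak peaks on both sides of its start site in 5 libraries and a downstream peak alone in *GFI1-36S* curcumin. It ranked 9.83 and 4.85 in *GFI1-36S*, 15.3 and 18.9 in *GFI1-36N*, while the *GFI1-KD* values were 14.7 and 19.1. The stronger of the peaks lay upstream in both *GFI1-36N* libraries and in *GFI1-KD* curcumin, and downstream in *GFI1-36S* vehicle and *GFI1-KD* vehicle. *Hdac11* (chr6:91156665-91174692, plus strand) ranked 13.3 and 0 in *GFI1-36S*, 11.7 and 17.6 in *GFI1-36N*, with 11.7 and 9.16 for *GFI1-KD*. With 35 to 50 fragments at its summit it had among the weakest promoter peaks of the members.

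By median rank over the 6 libraries the order was *Hdac4*, *Hdac5*, *Hdac2*, *Hdac1*, *Hdac7*, *Hdac3*, *Hdac8*, *Hdac6*, *Hdac11* and *Hdac9*. Of the neighbours in this order, only *Hdac3* and *Hdac8* kept their order in 6 of 6 libraries with ranges that did not overlap. The members nearest to each other were *Hdac8* and *Hdac6*, whose ranks differed by a mean of 4.12 points, and *Hdac11* and *Hdac6*, by 4.36. For *Hdac3* and *Hdac7*, the nearest to each other among the mid-ranked genes, the mean difference was 11.2. The nearest to *Hdac1* was *Hdac2* (14.4), the nearest to *Hdac2* was *Hdac7* (12.7), *Hdac4* and *Hdac5* were nearest to each other (19.0), and *Hdac9* was nearest to *Hdac11* (10.6). *Hdac1*, *Hdac2* and *Hdac3* all ranked above *Hdac6*, *Hdac8*, *Hdac9* and *Hdac11* in 6 of 6 libraries. Ranked among genes of the same chromosome, neither order held in every library. *Hdac8* and *Hdac3* then stood at 31.3 and 27.7 in *GFI1-36S* vehicle and at 40.4 and 35.0 in *GFI1-36N* curcumin. Both stood at 36.2 in *GFI1-KD* vehicle, and *Hdac3* stayed above *Hdac8* in the remaining libraries. In *GFI1-KD* curcumin *Hdac6* stood at 37.8 and *Hdac3* at 30.3.

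Class I as a whole was not separated from the other members. The median rank of the 4 class I genes was 52.7 against 26.6 for the 6 others in *GFI1-36S* vehicle, and 41.4 against 8.62 in *GFI1-36S* curcumin. It was 45.7 against 35.0 and 46.8 against 35.0 in *GFI1-36N* vehicle and curcumin, and 52.9 against 27.2 and 44.4 against 28.7 in *GFI1-KD*. By rank among all genes, the class I median was thus higher in all 6 libraries. Of the 24 pairs of a class I and another gene, however, the class I gene ranked higher in 15 and 15 pairs in *GFI1-36S*, 12 and 14 in *GFI1-36N*, while the *GFI1-KD* values were 15 and 14, so that the classes overlapped in each library. The class I genes ranged from 19.1 to 64.9 in *GFI1-36S* vehicle and the others from 0 to 84.4. Ranked among genes of the same chromosome, the class I gene was higher in 12 and 16 pairs in *GFI1-36S*. It was higher in 12 and 15 pairs in *GFI1-36N* and in 13 and 10 in *GFI1-KD*.

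The strongest promoter peaks of class I genes were wider. Their median width was 2230 and 1043.5 bp in *GFI1-36S*, 2016 and 1823 bp in *GFI1-36N*, with 2171 and 1679.5 bp for *GFI1-KD*, vehicle before curcumin. The strongest peaks of the other genes with a peak had medians of 922, 665.5, 957, 878, 1626 and 924 bp in the same order. The split *Hdac4* signal entered these values with its upstream peak, of 843 to 957 bp where the 2 peaks were separate. Summed over all promoter peaks of a gene, the difference did not hold in every library. In *GFI1-36S* curcumin the class I genes then held 735 to 1300 bp. *Hdac4* held 2482 bp, *Hdac7* 4611 bp over its starts, *Hdac5* 683 bp and *Hdac6* 413 bp.

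The genotypes were compared in the vehicle libraries. Against *GFI1-36S*, the *GFI1-KD* ranks of the members differed by no more than 4.86 points, at *Hdac6*. In *GFI1-36N* they differed by no more than 8.78 points, at *Hdac2*, with the exception of *Hdac7*, which was higher by 14.9. The *GFI1-36S* vehicle library was taken from its sample label, which its list name contradicts. In the library labelled *GFI1-36S* curcumin, *Hdac5* ranked 12.4 and *Hdac7* 74.7, against 80.1 and 39.6 in *GFI1-KD* vehicle. With the *GFI1-36S* treatments exchanged, the small differences would therefore not hold at these genes. No share of all genes stands beside these genotype differences, so their size cannot be called particular to deacetylase genes. Genes on chromosome 15, where *Hdac7* lies, had a median rank of 43.4 in *GFI1-36N* vehicle, 27.8 in *GFI1-36S* vehicle and 28.6 in *GFI1-KD* vehicle. When *Hdac7* was ranked among genes of chromosome 15 only, it stood at 55.8 in *GFI1-36N*, 64.3 in *GFI1-36S* and 64.3 in *GFI1-KD*, an order opposite to that among all genes.

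The effect of curcumin was then described within each genotype as the rank with curcumin minus that with vehicle, and a difference of 10 points or more was counted. In *GFI1-36S* mice, 6 of the 9 members with a peak ranked lower with curcumin and 3 higher, where 69.1% of all genes with a peak ranked lower. By 10 points or more, 4 were lower (*Hdac1*, *Hdac5*, *Hdac8* and *Hdac11*, against 41.4% of all genes) and 2 higher (*Hdac2* and *Hdac7*, against 15.0%). The median change was -4.98 for the members and -6.61 for all genes. In *GFI1-36N* mice, 3 ranked lower (39.9% of all genes) and 6 higher, with *Hdac1* and *Hdac5* lower by 10 points or more (11.3%) and *Hdac2* higher (19.3%). The median change was 3.68 for the members and 1.89 for all genes. In *GFI1-KD* mice, 6 ranked lower (62.9%) and 3 higher, with *Hdac1* and *Hdac2* lower by 10 points or more (20.6%) and *Hdac5* higher (9.47%). The medians were -2.56 and -2.34. Ranked among genes with peaks in both libraries, or by the ratio of summit heights, 4 members were lower in *GFI1-KD* and 5 higher, so that the majority turned. In *GFI1-36S* no majority of the members with a value was lower either way. By common genes *Hdac1*, *Hdac4*, *Hdac5* and *Hdac8* were lower there, and *Hdac2*, *Hdac3*, *Hdac6* and *Hdac7* higher. By ratio *Hdac1*, *Hdac5* and *Hdac8* were lower and the same genes higher. *Hdac11*, which had a peak there with vehicle alone, had no value in either and is not counted as lower. *Hdac4* had no ratio.

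Presence of a peak changed at 1 member. In *GFI1-36S*, *Hdac11* had a promoter peak with vehicle alone, which made 1 of 9 members with a peak in exactly 1 library, against 18.2% of all genes with a peak in either. In *GFI1-36N* and *GFI1-KD* no member changed, against 7.57% and 7.92% of all genes. The lost *Hdac11* peak had 43 fragments at its summit with vehicle (exact Poisson 95% interval 31.1 to 57.9, counting error only).

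**Figure D3:**
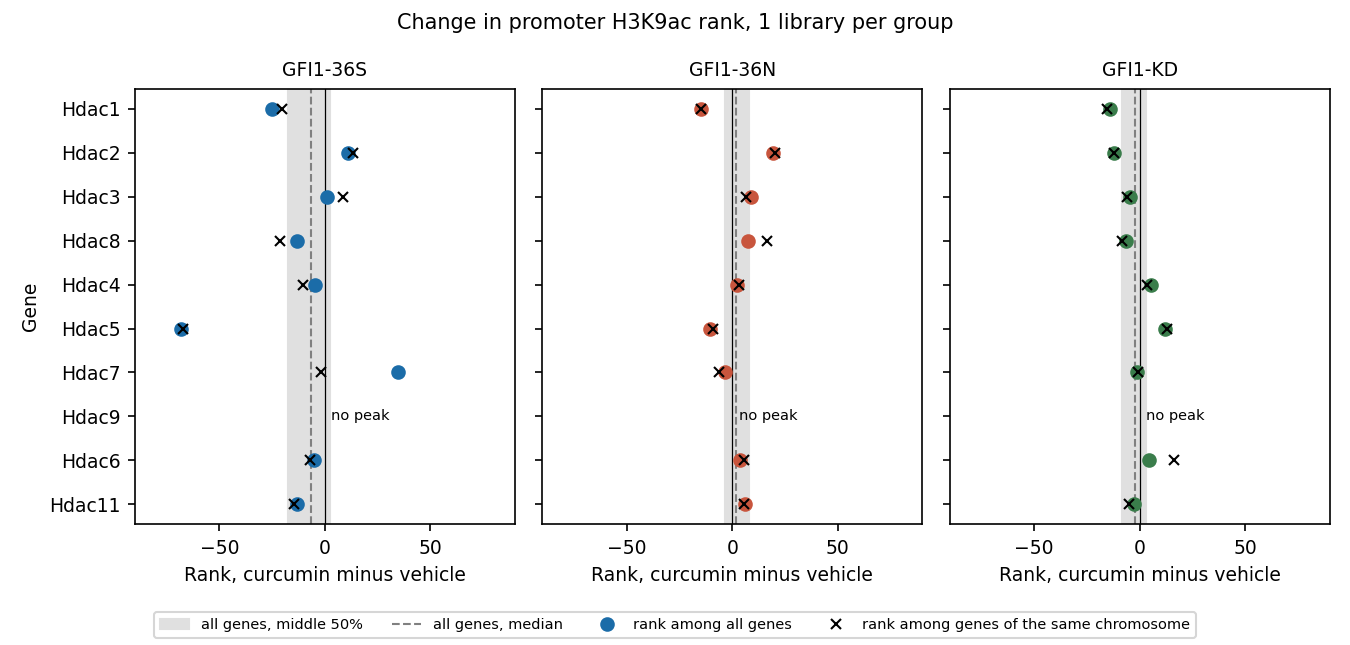
Rank with curcumin minus rank with vehicle (x axis, points on the scale to 100) for each deacetylase gene in 3 genotypes, as coloured points for ranks among all genes and crosses for ranks among genes of the same chromosome, over the middle 50% (grey) and median (dashed) of all genes. *Hdac5* lies at -68.3 in *GFI1-36S* and 11.9 in *GFI1-KD*, and *Hdac7* in *GFI1-36S* moves from 34.9 to -1.79 when ranked within its chromosome.

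By the sample labels, *Hdac1* was the only member lower by 10 points or more in all 3 genotypes, as were 1.5% of all genes with a promoter peak in at least 1 library. Its changes were -24.8, -14.7 and -14.2 in *GFI1-36S*, *-36N* and *-KD*. With the *GFI1-36S* treatments exchanged, the *Hdac1* change there became 24.8, so that *Hdac1* was not lower in all 3 genotypes. Its summit held 141 and 61 fragments in *GFI1-36S*, 141 and 118 in *GFI1-36N*, while the *GFI1-KD* values were 201 and 122. Divided by the median ratio over all genes that had peaks in both libraries (0.556, 1.01 and 0.714), the summit height with curcumin was 0.779 (exact 95% interval 0.567 to 1.06), 0.832 (0.646 to 1.07) and 0.850 (0.673 to 1.07) times that with vehicle. The 3 intervals, which cover counting error only, all include equal height. At this depth a lower *Hdac1* summit was therefore not separable from counting error within any of the genotypes.

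*Hdac2* moved by 10.9 in *GFI1-36S* and 19.5 in *GFI1-36N*, and by -12.1 in *GFI1-KD*. The scaled height ratios were 1.20 (0.916 to 1.58), 1.23 (0.972 to 1.57) and 0.868 (0.679 to 1.11), and all intervals include equal height. The change fell below 10 points when ranked among all promoter peaks, to 8.78 in *GFI1-36S* and -8.41 in *GFI1-KD*, and was -9.80 in *GFI1-KD* among genes with peaks in both libraries.

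*Hdac5* showed the greatest change of the members. In *GFI1-36S* its peak had a fold enrichment of 28.2, a width of 1801 bp and 167 fragments with vehicle, and 6.23, 488 bp and 34 fragments with curcumin. The rank changed by -68.3, and the scaled height ratio was 0.366 (0.246 to 0.532). With curcumin the signal broke into a peak from 102229652 to 102230139 and a weaker peak from 102230309 to 102230503 on chromosome 11, and part of the printed *Hdac5* sequence lay in the gap. In *GFI1-36N* the change was -10.8 with a ratio of 0.867 (0.692 to 1.09), and in *GFI1-KD* it was 11.9 with a ratio of 1.20 (0.990 to 1.46). Ranked among chromosome 11 genes, the 3 changes were -67.0, -9.25 and 12.8. A site inside the *Hdac5* gene, from 102217587 to 102219874, kept a peak in all 6 libraries, with fold enrichments of 10.3 and 6.95 in *GFI1-36S*, 11.6 and 11.4 in *GFI1-36N*, with 13.3 and 12.6 for *GFI1-KD*. It covers a start site at 102218928 of the comprehensive annotation. In *GFI1-36S* curcumin this internal site had a fold enrichment of 6.95 against 6.23 at the main promoter of *Hdac5*, where the promoter was higher in the other 5 libraries. The promoter summit held 34 fragments there (95% interval 23.5 to 47.5, counting error only). Whether this small difference exceeds counting error was not tested. The *GFI1-36S* change moved with the marker differences of that library given above, and their part in it was not tested.

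*Hdac7* moved by 34.9 in *GFI1-36S*, with 122 fragments with vehicle and 111 with curcumin and a scaled height ratio of 1.64 (1.25 to 2.14). Genes on chromosome 15 moved by a median of 19.7 in the same pair, and 63.1% of 447 such genes rose by 10 points or more. Chromosome 15 held 2.97% of the peaks with vehicle and 6.41% with curcumin. Ranked among chromosome 15 genes alone, *Hdac7* stood at 64.3 with vehicle and 62.5 with curcumin, a change of -1.79. In *GFI1-36N* and *GFI1-KD*, *Hdac7* changed by -3.52 and -1.39 among all genes.

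*Hdac8* and *Hdac6* lie on chromosome X and changed by -13.4 and -4.98 in *GFI1-36S*. In this pair, genes on chromosome X changed by a median of -10.8, and only the curcumin library had peaks on chromosome Y. Among chromosome X genes alone, *Hdac8* ranked 31.3 with vehicle and 9.84 with curcumin. Its change was -3.45 when only genes with peaks in both libraries were ranked and -7.95 with equal numbers of top peaks, so that the call at 10 points was lost. Its scaled height ratio was 0.763 (0.458 to 1.24), with 25 fragments at the curcumin summit. In *GFI1-36N* the changes were 7.5 and 3.68, and in *GFI1-KD* they were -6.33 and 4.45. The *Hdac6* ratio in *GFI1-KD*, 1.5 (1.02 to 2.2), compares a downstream peak with vehicle and an upstream peak with curcumin. *Hdac3* and *Hdac4* changed by less than 10 points in every genotype.

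Outside the promoter windows, 6 members had gene-body peaks in at least 1 library, where 44.0% of all coding genes did. These were *Hdac1*, with 1 site in *GFI1-KD* curcumin, and *Hdac4*, *Hdac5*, *Hdac7*, *Hdac9* and *Hdac11*. *Hdac2*, *Hdac3*, *Hdac6* and *Hdac8* had none, although *Hdac8* is 221 kb long. All 4 class IIa genes had several such sites.

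*Hdac9*, without a promoter peak, had more gene-body sites than any other member. The gene (chr12:34047580-34917095, minus strand) is 870 kb long and held 27 sites, with 9 peaks in *GFI1-36S* vehicle and 0 with curcumin, 16 and 25 in *GFI1-36N*, while the *GFI1-KD* values were 7 and 16. The number was thus higher with curcumin in *GFI1-36N* and *GFI1-KD* and lower in *GFI1-36S*. Per kb, *Hdac9* held 0.0184 peaks in *GFI1-36N* vehicle and 0.0288 with curcumin, where all genes together held 0.0174 and 0.0222. In *GFI1-36S* it held 0.0104 and 0, where all genes held 0.0184 and 0.00599. In *GFI1-KD* it held 0.00805 and 0.0184, where all genes fell from 0.0175 to 0.0110. The strongest site, from 34219314 to 34221738, had a fold enrichment of 6.57 in *GFI1-36S* vehicle, 10.9 in *GFI1-36N* vehicle, 19.9 in *GFI1-36N* curcumin and 14.2 in *GFI1-KD* curcumin. No peak was listed there in *GFI1-36S* curcumin and *GFI1-KD* vehicle. The site overlaps an exon and lies 215569 bp from the nearest annotated start. A site from 34712637 to 34714841, in an intron, had a peak in 5 libraries with fold enrichments of 6.06 to 10.3. A site from 34432150 to 34433442 lay 3865 bp from the nearest start of the comprehensive annotation. Sites from 34906732 to 34906947 and from 34907040 to 34907410 lay 32 and 61 bp from a start found only in that annotation.

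**Figure D4:**
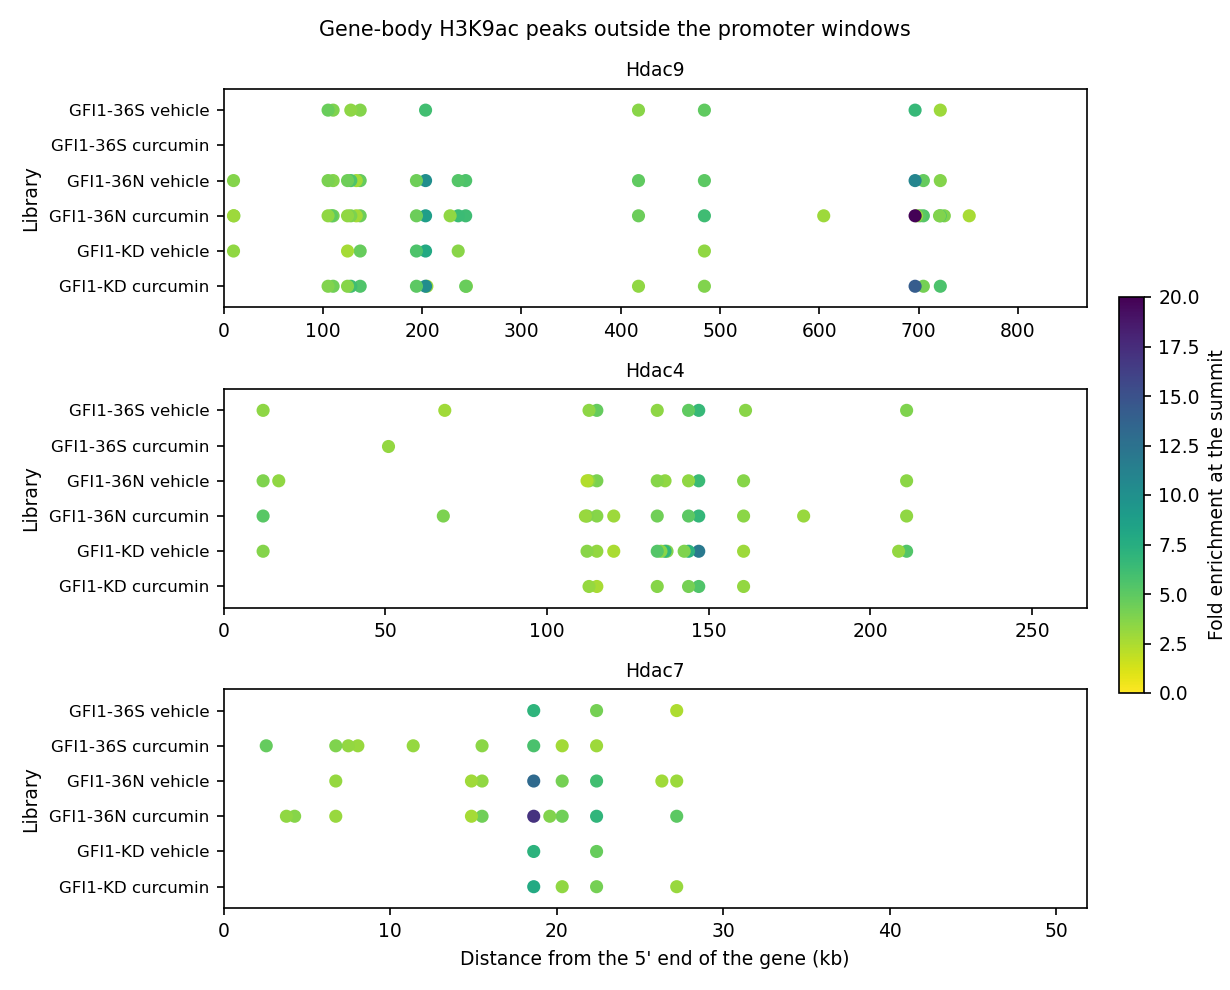
Gene-body H3K9ac peaks outside the promoter windows of *Hdac9*, *Hdac4* and *Hdac7*, by distance from the 5′ end of the gene in kb (x axis) in each library (rows), with points at the middle of each merged site coloured by fold enrichment. *Hdac9* has no point in *GFI1-36S* curcumin and 25 peaks in *GFI1-36N* curcumin, and *Hdac7* has 2 sites in all 6 libraries.

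*Hdac4*, 267 kb long, held 22 gene-body sites, none of them in all 6 libraries. There were 11 peaks in *GFI1-36S* vehicle and 1 with curcumin, 11 and 15 in *GFI1-36N*, with 15 and 7 for *GFI1-KD*. The density of such peaks over all genes moved the same way in each pair, as given for *Hdac9*. The strongest, in an intron from 92047179 to 92050389, had fold enrichments of 6.57 in *GFI1-36S* vehicle, 6.47 and 6.75 in *GFI1-36N*, while the *GFI1-KD* values were 11.9 and 5.48.

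*Hdac7*, 51.8 kb long, held 15 sites, with 5 and 11 peaks in *GFI1-36S*, 9 and 11 in *GFI1-36N*, with 2 and 4 for *GFI1-KD*. It was the only member with more gene-body peaks in *GFI1-36S* curcumin than in vehicle, and these peaks covered 2737 bp with vehicle and 4818 bp with curcumin there, in the pair whose share of chromosome 15 peaks is given above. In *GFI1-36N* they covered 5134 and 7682 bp. An intronic site from 97825136 to 97826627 had a peak in all 6 libraries, with fold enrichments of 7.03 and 5.72 in *GFI1-36S*, 13.2 and 17.1 in *GFI1-36N*, while the *GFI1-KD* values were 7.15 and 7.87. The highest values at this site were those of the 2 *GFI1-36N* libraries. Chromosome 15 held 4.6% and 5.17% of the peaks in *GFI1-36N*, 2.95% and 3.26% in *GFI1-KD*, and 2.97% and 6.41% in *GFI1-36S*. The part of this share in the values at the site was not tested. *Hdac11* held 3 sites, with 2 and 0 peaks in *GFI1-36S*, 2 and 1 in *GFI1-36N*, with 2 and 0 for *GFI1-KD*.

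The genes of the complexes in which HDAC1 and HDAC2 work were acetylated throughout. All 10 SIN3, 8 NuRD and 4 CoREST genes had a promoter peak in each library, as had *Dnttip1*, the only gene of 3 MiDAC names that was matched. Of all coding genes, 44.3% to 53.8% had one per library. The share with a peak in every library was not computed. *Mta2* of NuRD had the highest mean rank (96.1), followed by *Dnttip1* (91.7) and *Rcor1* of CoREST (88.1). The median rank of the SIN3 genes was 64.6 to 76.3 over the libraries and that of the NuRD genes 66.5 to 81.7, above the class I median in each library. Of these 23 partner genes, 8 ranked lower and 5 higher by 10 points or more with curcumin in *GFI1-36S*, 2 and 5 in *GFI1-36N*, while the *GFI1-KD* values were 6 and 1. The shares of all genes were 41.4% and 15.0%, 11.3% and 19.3%, and 20.6% and 9.47% in the same order. Their median changes of -5.68, 1.21 and -3.31 stood beside -6.61, 1.89 and -2.34 for all genes.

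The sirtuins, the NAD-dependent deacetylases of class III, had a promoter peak at 5 of 7 genes in each library, where 44.3% to 53.8% of all coding genes had one. *Sirt6* and *Sirt7* had none in any of the 6. With curcumin, 4 sirtuins ranked lower by 10 points or more in *GFI1-36S*, 2 in *GFI1-36N* and 1 in *GFI1-KD*, and none ranked higher by that much. Over all genes, the shares lower by 10 points or more were 41.4%, 11.3% and 20.6%, and the shares higher were 15.0%, 19.3% and 9.47%. With 5 sirtuins that had a peak, these counts cannot be told from those shares.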

How the data were processed

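H3K9ac ChIP-seq peak lists of 6 libraries were analysed, and an input and an IgG sample (2 libraries) were not used here. The authors trimmed reads with Trim Galore, mapped them to mm10 with BWA-MEM, called peaks per library with MACS2 and removed black list regions. Versions, control, threshold and duplicate handling were not given in the sources used here. The deposited fold enrichment is a ratio of summit fragments to local background, and the deposited −log10 p, −log10 q and integer score are those of MACS2. None is normalized between libraries, so values were ranked within a list.

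Genes came from GENCODE M21 basic transcripts (21938 coding genes outside the mitochondrial genome). Overlap meant at least 1 bp within 1000 bp of any TSS, and a change meant 10 rank points or more. Genes without a peak in either library of a pair were left out of its changes. Tied fold enrichments shared a rank. Fragments at a summit were recovered from fold enrichment and p within 0.002 on the −log10 p scale, a tolerance widened in proportion at high −log10 p. This succeeded for 95.0% to 99.7% of the strongest promoter peaks of genes per library. The value was not recovered for *Hdac4* in *GFI1-36S* curcumin. Intervals are exact at 95% and cover counting error only. Python 3.11.15, numpy 2.4.6, scipy 1.17.1, pandas 2.3.3 and matplotlib 3.10.9 were used, and the steps were tested on simulated data. All 10 members are named, with the partner genes or sirtuins that lacked a promoter peak in at least 1 library, the 3 of highest mean rank, and the defining markers. Members and lists were chosen with earlier results of these data known. A further list of partner genes is not reported here.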

Additional observations from a re-analysis of the deposited data

Results flagged for a closer look

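The curcumin change of *Hdac2* had opposite signs in the genotypes. The rank change was 10.9 in *GFI1-36S*, 19.5 in *GFI1-36N* and -12.1 in *GFI1-KD*, so that *GFI1-KD* differed by -22.9 from *GFI1-36S* and by -31.5 from *GFI1-36N*. Under some alternatives the *GFI1-36S* and *GFI1-KD* changes fell below 10 points with the same sign. With 1 library per group, this difference was not tested.

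For *Hdac5*, the change was -68.3 in *GFI1-36S*, -10.8 in *GFI1-36N* and 11.9 in *GFI1-KD*. *GFI1-KD* thus differed by 80.2 points from *GFI1-36S* and by 22.7 from *GFI1-36N*, and the difference was not tested.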

How the results depend on the processing

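No paired analysis was run, and each group had 1 library. The results are counts and rank differences within a library or genotype, and none came from a test. The 3 genotypes are given side by side and were not used as blocks. Of the alternative values for the counts per library or genotype, 139 stayed within 1.5 times the main count and 3 moved. Among the 139 was the count of class I pairs in *GFI1-KD* curcumin by same-chromosome ranks, 10 of 24 against 14. With the most upstream start site alone, 1 member had a peak in exactly 1 *GFI1-36N* library, and with comprehensive transcripts 1 member had in *GFI1-KD*, where the main counts were 0. When the 2 *GFI1-36S* treatments were exchanged, 3 members ranked lower with curcumin, and the changes became 24.8 for *Hdac1*, -10.9 for *Hdac2*, 13.4 for *Hdac8*, 68.3 for *Hdac5*, -34.9 for *Hdac7* and 13.3 for *Hdac11*. Ranked among genes of the same chromosome, *Hdac7* changed by -1.79 in *GFI1-36S*. Of the other values for called changes, 110 kept their direction and stayed at 10 points or more, and 8 kept their direction below that. The 8 were *Hdac2* in *GFI1-36S* (8.78) and *GFI1-KD* (-8.41 and -9.80), *Hdac5* in *GFI1-36N* (-7.52 and -9.25), and *Hdac8* (-3.45 and -7.95) and *Hdac11* (-7.47) in *GFI1-36S*. Comprehensive transcripts, same-chromosome ranks and the summaries without the *GFI1-36S* curcumin library were chosen after seeing the data. No replicate could be left out. Summits with few fragments, such as the 24 at *Hdac6* in *GFI1-36S* curcumin, limit what can be told from counting error.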
